A study of Mus musculus with 231 samples.

Results

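The libraries of month 6 in the training cohort set the miRNAs of peripheral blood mononuclear cells (PBMC) from 5 CM mice beside those from 7 Ctrl mice. The 12 libraries, 1 per mouse, were all training libraries whose label gave month 6 after induction, out of 231 libraries in the whole series. A further pair of libraries labelled T6p5 was kept apart. CM stands for Cbfb-MYH11, the mouse form of the fusion gene that arises through inv(16) in a class of acute myeloid leukemia. The study followed C57BL/6 mice by repeated blood sampling from before induction and asked how miRNAs in blood, miR-126 above all, behave while this leukemia develops.

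CM mice held a conditional fusion allele that the Mx1-Cre recombinase switches on, and all 5 carried the genotype code CHW. Of the Ctrl mice, 4 carried the code CW, 2 carried HW and 1 carried WT. None of these codes is explained, and the sources differ on whether a Ctrl mouse could hold the allele without its induction. Every mouse, Ctrl mice included, received 7 doses of poly(I:C) at 14 mg/kg, a mimic of double-stranded RNA that raises interferon, starting at an age of 6 to 8 weeks. The Mx1 promoter responds to interferon and is active in many cell types besides blood stem cells. The CM group held 2 females and 3 males, and the Ctrl group 2 females and 5 males. Within month 6 each replicate is a mouse, so that p-values of that month's comparison refer to the spread between mice. CM mouse 3341 had its last training library at month 6, mouse 3334 at T6p5, mouse 3336 at month 7, mouse 3370 at month 9 and mouse 3368 at month 10.

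A miRNA is a short RNA that leads the Argonaute protein to messenger RNAs, chiefly through its seed, bases 2 to 8 from the 5′ end, and lowers their translation or stability. miR-126 is made from an intron of Egfl7, is abundant in endothelium and platelets, and is known in blood for keeping stem cells quiescent. In blood samples, many miRNAs follow cell composition, since miR-451a marks red cells, miR-150 marks mature lymphocytes and miR-223 marks granulocytes and monocytes.

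Of the 33 miRNAs named by rule, 27 had a mature sequence in the RefSeq annotation of build GRCm38.p6. The 10 on which the comparison turned are written 5′ to 3′ with the seed in capitals. The first set is shown because its highest level lay in 1 CM mouse, mouse 3341.

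miR-126a-3p: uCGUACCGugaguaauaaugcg

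miR-31-5p: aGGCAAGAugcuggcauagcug

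miR-132-3p: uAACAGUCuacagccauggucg

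miR-212-3p: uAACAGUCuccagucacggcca

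miR-2137: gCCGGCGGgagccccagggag

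miR-196b-5p: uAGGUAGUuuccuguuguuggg

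miR-193b-3p: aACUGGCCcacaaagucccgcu

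The second set is shown because its fitted level was lower in CM than in Ctrl mice.

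miR-141-3p: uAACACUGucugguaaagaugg

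miR-200c-3p: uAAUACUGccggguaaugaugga

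miR-374b-5p: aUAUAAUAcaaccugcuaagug

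miR-132-3p (chr11:75173723-75173744, plus strand) and miR-212-3p (chr11:75173443-75173464, plus strand) start 280 bases apart, match at 17 of 22 positions and share a seed that no other mature miRNA of the annotation had. miR-141-3p (chr6:124717917-124717938, minus strand) and miR-200c-3p (chr6:124718324-124718346, minus strand) start 407 bases apart, match at 18 of 22 positions and differ at 1 seed base. miR-126a-3p (chr2:26591402-26591423, plus strand) lies within the span of Egfl7, and miR-374b-5p (chrX:103573112-103573133, minus strand) within that of Ftx, a non-coding gene of the X-inactivation centre. The other positions are chr4:88910614-88910635, minus strand for miR-31-5p, chr6:52230129-52230150, minus strand for miR-196b-5p, chr16:13449570-13449591, plus strand for miR-193b-3p, and chrX:72992113-72992133, plus strand within the span of Zfp185 for miR-2137. A span is the whole extent of a gene, and exons were not distinguished.

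The labels of 2 of the 12 libraries are in doubt, those of CM mouse 3334 and Ctrl mouse 3335. A running number in the labels mostly rises by 1 from one time point of a mouse to the next, with 1 number left out for mouse 3341 between months 5 and 6, and for mouse 3335 it went from 1 to 6 over months 0 to 5. At month 6 the number that follows, 7, stands on the library labelled 3334, and the number that would follow for mouse 3334 stands on the library labelled 3335. The later libraries labelled 3334 (T6p5, number 8) and 3335 (months 7 to 10) continue the crossed numbers and share the doubt. The comparison of the groups was therefore made with 12 libraries and with the other 10, and list members were counted both ways. Spreads among mice and comparisons between months are given below for the libraries as labelled. The 12 libraries held between 2470941 and 6234743 miRNA counts, and no pair of them was alike within counting error. Of 1863 miRNAs in the count table, 444 passed the filter on low counts. Levels are given as CPM, the counts scaled to library size with TMM factors. Markers of PBMC were present throughout, with miR-150-5p at 16008 to 49527 CPM and miR-223-3p at 2953 to 7752 CPM. The liver marker miR-122-5p was between 0.588 and 5.51 CPM, whereas the muscle marker miR-1a-3p reached 8244 CPM in the library labelled 3334.

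No miRNA passed the test between CM and Ctrl mice at month 6. With all 12 libraries, edgeR's quasi-likelihood test called 0 of 444 miRNAs at an adjusted p (Benjamini-Hochberg) under 0.05 (0%), and the smallest adjusted p was 0.416. At an unadjusted p under 0.05 it gave 24 miRNAs higher in CM (5.41%) and 7 lower (1.58%). DESeq2 called 0 as well, with 18 at an unadjusted p under 0.05. The median log2 fold change over the 444 miRNAs was -0.03.

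What stood apart was 1 mouse. In the library of CM mouse 3341, 207 of 444 miRNAs (46.6%) lay more than 1 log2 unit from the mean of the Ctrl libraries, 19.8% above it and 26.8% below. Mice 3334, 3336, 3368 and 3370 had 31, 70, 31 and 33 such miRNAs, and Ctrl mice, each set against the other Ctrl mice, had 29 to 94. Mouse 3341 held the highest of the 12 levels for 25.5% of miRNAs and the lowest for 32.7%. Across miRNAs, which are not independent replicates, its median Pearson correlation with the other libraries was 0.901, and that of the other 11 lay between 0.956 and 0.973. Of the 24 miRNAs with the higher fitted level, 21 had their highest library in mouse 3341. In 12 of the 24, just 1 CM library was above all Ctrl libraries. Over all 444 miRNAs, 217 had just 1 CM library beyond all Ctrl libraries, above or below. These counts differ in kind, since that of the 24 takes libraries above the Ctrl range only.

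**Figure D1:**
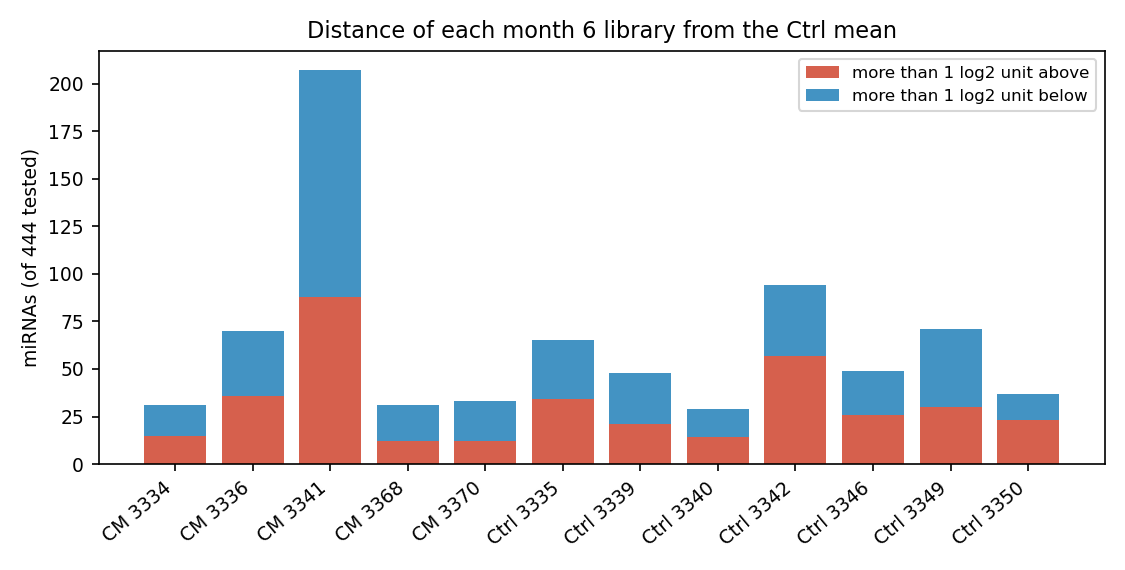
Number of the 444 tested miRNAs in each month 6 library (horizontal axis, arm and mouse) that lay more than 1 log2 unit above (red) or below (blue) the mean log2(CPM + 1) of the Ctrl libraries, with a Ctrl library set against the other Ctrl libraries. Mouse 3341 had 207 in all, and the next, Ctrl mouse 3342, had 94.

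miR-126a-3p, one arm of the miR-126 hairpin, had 5062 CPM in mouse 3341, 343 in mouse 3336, 213 in mouse 3368, 193 in mouse 3370 and 159.9 in the library labelled 3334. In Ctrl mice it ranged from 106.5 to 564 CPM with a median of 178. Mouse 3341 was thus 8.97-fold above the highest Ctrl library, the one labelled 3335, and the other 4 CM libraries lay inside the Ctrl range. The difference in mean log2(CPM + 1), CM minus Ctrl, was 1.09, which is within the spread of the mice (exact permutation test, two-sided, p = 0.235, and 0.235 after BH adjustment over both arms of the hairpin). The smallest p that 5 against 7 mice allow in this exact test is 0.00126.

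The other arm, miR-126a-5p, had 3268 CPM in mouse 3341, 217 in mouse 3336, 99.98 in mouse 3368, 89.2 in the library labelled 3334 and 80.9 in mouse 3370, against 34.3 to 285 CPM with a median of 75.97 in Ctrl mice. Again mouse 3341 alone lay above the Ctrl range. The mean log2 difference was 1.33 (exact permutation test, p = 0.196, BH-adjusted 0.235). Behind the levels of mouse 3341 were 13328 counts of miR-126a-3p and 8604 of miR-126a-5p.

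edgeR compares fitted mean counts, in which 1 very high library weighs more than in a mean of log values. Its log2 fold change of miR-126a-3p was 2.40 ± 0.85 (SE; n = 5 and 7; edgeR adjusted p = 0.443) and became -0.02 without mouse 3341. For miR-126a-5p it was 2.76 ± 0.94 (edgeR adjusted p = 0.438) and 0.10 without that mouse. In the deposited CPM, a separate table of the same libraries, mouse 3341 had 5388 CPM of miR-126a-3p, and the remaining 11 libraries had 98.5 to 561.

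Without the libraries labelled 3334 and 3335, 4 CM mice were compared with 6 Ctrl mice. The mean log2 difference was then 1.74 for miR-126a-3p (exact permutation p = 0.0286, 0.0571 after adjustment) and 1.99 for miR-126a-5p (exact permutation p = 0.0619, 0.0619 after adjustment). miR-126a-3p was 186 to 5444 CPM in CM and 104.3 to 249 CPM in Ctrl mice on the scale of those 10 libraries, so that the groups still overlapped. With mouse 3341 left out too, edgeR's log2 fold change was 0.57 ± 0.33 (unadjusted p = 0.111, adjusted p = 0.654).

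**Figure D2:**
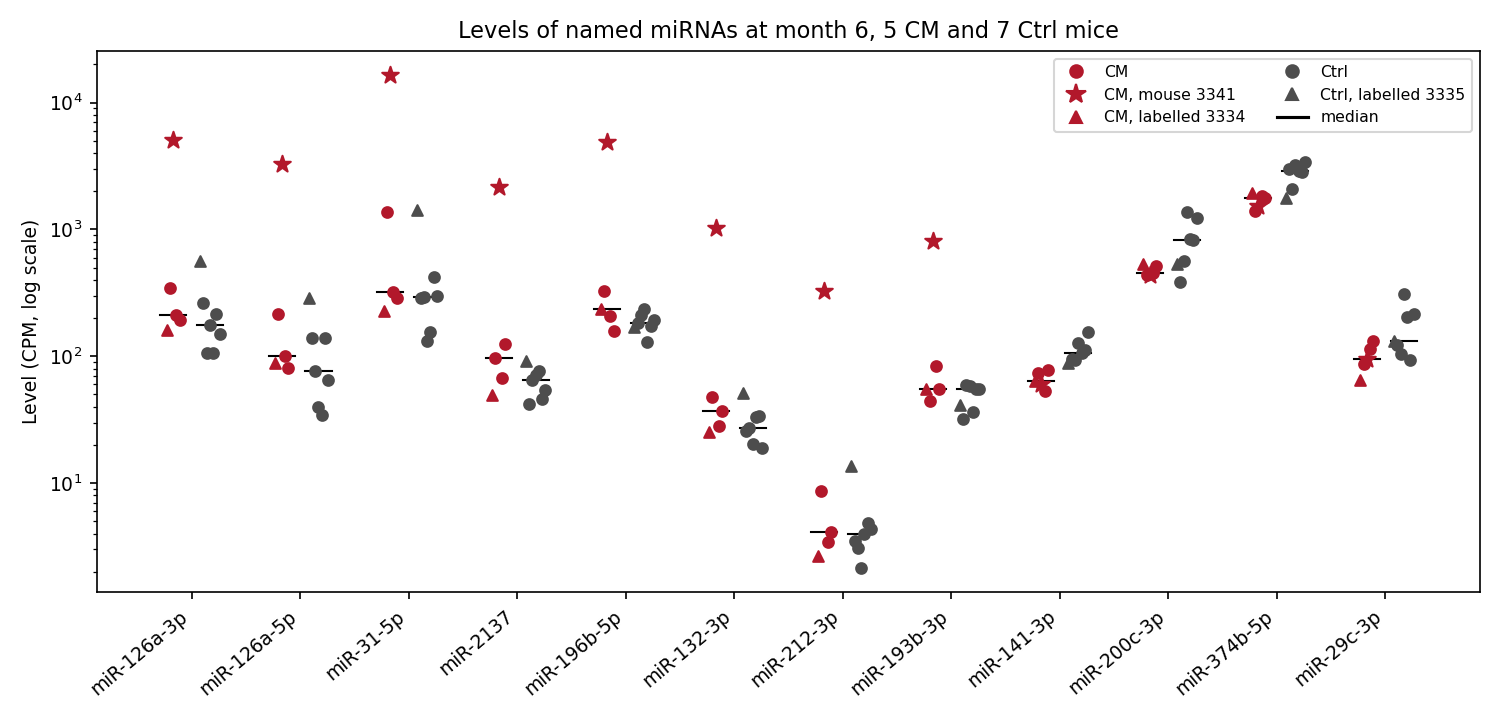
Level (CPM, log scale) of 12 miRNAs in each month 6 library, with CM libraries in red and Ctrl libraries in gray; stars mark mouse 3341, triangles the libraries labelled 3334 and 3335, and bars the median of each group. For miR-126a-3p the star, at 5062 CPM, lies far above all other points, and for miR-141-3p every CM library lies below every Ctrl library.

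A set of miRNAs of different function had the same form, with mouse 3341 far above the rest. miR-31-5p, mostly studied in epithelial and T cells, had 16394 CPM in mouse 3341, 1377 in mouse 3336, 324 in mouse 3368, 288 in mouse 3370 and 225 in the library labelled 3334. Ctrl mice ranged from 132.9 to 1417 CPM with a median of 294, and the highest of them was the library labelled 3335. Mouse 3341 was 11.6-fold above that library, and mouse 3336 lay just below it. The fitted log2 fold change of 3.12 ± 1.04 (edgeR adjusted p = 0.438) became 0.31 without mouse 3341. Without the libraries labelled 3334 and 3335 it was 4.26 ± 1.03 (edgeR adjusted p = 0.195), and 1.34 ± 0.51 (edgeR adjusted p = 0.594) with mouse 3341 left out as well.

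miR-132 and miR-212, which are transcribed together and are induced by CREB, were also far above the Ctrl mice in mouse 3341. miR-132-3p had 1026 CPM in mouse 3341 and 25.04 to 47.8 in the other CM mice, against 18.97 to 51.3 CPM with a median of 27.2 in Ctrl mice. miR-212-3p had 329.7 CPM in mouse 3341 and 2.67 to 8.69 in the other CM mice, against 2.14 to 13.7 CPM with a median of 3.95 in Ctrl mice. For both, 4 of 5 CM libraries lay inside the Ctrl range, while mouse 3341 was 20.005-fold and 24.04-fold above the highest Ctrl library. The fitted log2 fold changes of 2.95 ± 0.88 and 3.76 ± 1.14 (both edgeR adjusted p = 0.416) became 0.16 and -0.16 without this mouse. miR-132-5p, the opposite arm of the first hairpin, had 180.0 CPM in mouse 3341 and 1.63 to 12.2 CPM in the other 11 libraries.

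miR-196b-5p, encoded in the HoxA cluster and known for high levels in immature myeloid cells, had 4919.6 CPM in mouse 3341, 327 in mouse 3336, 235 in the library labelled 3334, 209 in mouse 3368 and 159 in mouse 3370. Ctrl mice had 129.4 to 235 CPM with a median of 184. Mouse 3341 and, by a smaller margin, mouse 3336 lay above all Ctrl libraries. The log2 fold change was 2.66 ± 0.77 (edgeR adjusted p = 0.416) and 0.31 without mouse 3341.

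miR-2137 had 2145 CPM in mouse 3341, 125.9 in mouse 3370, 96.2 in mouse 3336, 67.1 in mouse 3368 and 49.4 in the library labelled 3334, against 42.3 to 91.8 CPM with a median of 64.97 in Ctrl mice. Here 3 CM libraries lay above the Ctrl range. The log2 fold change was 2.96 ± 0.84 (edgeR adjusted p = 0.416) and 0.37 without mouse 3341. miR-193b-3p had 813 CPM in mouse 3341 and 44.1 to 83.9 in the other CM mice, against 32.2 to 58.8 CPM with a median of 54.7 in Ctrl mice, and 2 CM libraries lay above the Ctrl range. Its fold change of 2.13 ± 0.67 (edgeR adjusted p = 0.438) became 0.30 without mouse 3341.

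Over the 24 miRNAs with the higher fitted level, the median log2 fold change was 2.14, and 0.28 once mouse 3341 was left out. All 24 could be tested again without it, and 3 of them then had an unadjusted p under 0.05. These were the muscle miRNAs miR-133a-3p (3.89) and miR-1a-3p (4.15) and the imprinted miR-541-5p (1.81), the last named after its values were seen. Their highest library was not mouse 3341. By the count table, miR-1a-3p had 8244 CPM in the library labelled 3334 and at most 404 CPM elsewhere. In the deposited CPM it had 9946 CPM there, 1897 CPM in mouse 3336 and at most 483 CPM in the rest. miR-133a-3p had 397 CPM in the library labelled 3334 and at most 95.3 CPM elsewhere by the count table. miR-541-5p had 32.7 CPM in mouse 3336 and at most 5.67 CPM elsewhere. In the fit without mouse 3341, edgeR called 0 of 460 miRNAs, with 5 higher and 7 lower at an unadjusted p under 0.05.

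**Figure D3:**
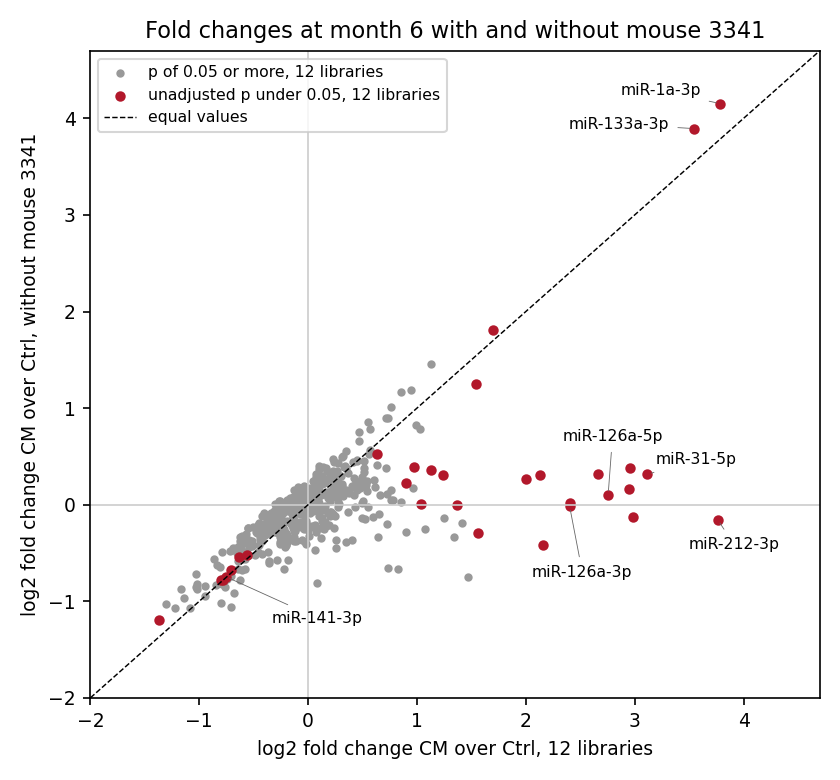
Log2 fold change of CM over Ctrl at month 6 for each tested miRNA with 12 libraries (horizontal) and without mouse 3341 (vertical), in red where the unadjusted p with 12 libraries was under 0.05. Points on the dashed line have equal values in both fits; most red points on the right lie near 0 on the vertical axis, as miR-126a-3p does (2.40 and -0.02), whereas red points below 0 stay near the line.

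The 7 miRNAs with the lower fitted level did not depend on that mouse in the same way. Their median log2 fold change was -0.75 with and -0.75 without mouse 3341, all 7 had a negative value in both fits, and 5 of the 7 had an unadjusted p under 0.05 in both. None of them passed adjustment. miR-141-3p, a member of the miR-200 family, which upholds the epithelial state, was the 1 miRNA of 444 for which every CM library lay below every Ctrl library (0.225%). It had 77.4 CPM in mouse 3370, 74.2 in mouse 3336, 63.999 in the library labelled 3334, 60.8 in mouse 3341 and 53.1 in mouse 3368, against 88.9 to 154 CPM with a median of 106.5 in Ctrl mice. The highest CM and the lowest Ctrl library, 77.4 and 88.9 CPM, lay closer together than the libraries within either group are spread. Its log2 fold change was -0.75 ± 0.21 (edgeR unadjusted p = 0.00292, adjusted p = 0.416). For 0 of 444 miRNAs (0%) did every CM library lie above every Ctrl library.

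miR-200c-3p, its neighbour on chromosome 6, had 434 to 538 CPM in CM mice, against 385 to 1384 CPM with a median of 818 in Ctrl mice. The CM mice lay close together toward the lower end of a wide Ctrl range (log2 fold change -0.80 ± 0.31, edgeR adjusted p = 0.499). The relatives by seed also had negative fold changes, with miR-200b-3p at -0.77 ± 0.38, miR-429-3p at -0.69 ± 0.46 and miR-200a-3p at -0.36 ± 0.35 (edgeR adjusted p = 0.706, 0.706 and 0.774). None of the 5 family members passed the test.

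miR-374b-5p had 1937 CPM in the library labelled 3334, 1824 in mouse 3368, 1762 in mouse 3370, 1529 in mouse 3341 and 1394 in mouse 3336. In Ctrl mice it ranged from 1783 to 3414 CPM with a median of 2879, and its lowest value there was in the library labelled 3335. Of the CM libraries, 3 lay below the whole Ctrl range (log2 fold change -0.70 ± 0.21, edgeR adjusted p = 0.416). Without the libraries labelled 3334 and 3335 the groups separated, with 1359 to 1860.1 CPM in CM and 2035 to 3281 CPM in Ctrl mice (log2 fold change -0.78 ± 0.21, edgeR adjusted p = 0.195).

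The remaining named miRNAs of this side overlapped between the groups. let-7i-3p had 100.9 to 153 CPM in CM and 125.2 to 259 CPM in Ctrl mice (log2 fold change -0.57 ± 0.22, edgeR adjusted p = 0.499). miR-29a-5p had 27.7 to 53.6 and 46.5 to 94.9 CPM (-0.63 ± 0.25, edgeR adjusted p = 0.499), and 4 of 5 CM libraries were below all Ctrl libraries. In the deposited CPM it overlapped more widely, at 11.99 to 22.3 CPM in CM and 14.6 to 43.7 CPM in Ctrl mice. miR-29c-3p, of a family that is abundant in mature lymphocytes, had 64.6 to 132.4 and 93.1 to 309.9 CPM (-0.78 ± 0.33, edgeR adjusted p = 0.570).

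Without the libraries labelled 3334 and 3335, edgeR again called 0 miRNAs, here of 445 (0%), with a smallest adjusted p of 0.195. At an unadjusted p under 0.05 there were 45 higher (10.1%) and 18 lower (4.04%) miRNAs, and DESeq2 called 0 with 57 at an unadjusted p under 0.05. By the count table, every CM library was above every Ctrl library for 6 miRNAs (1.35%) and below for 9 (2.02%). Those above were miR-3968, miR-1949, miR-674-3p, miR-298-5p, miR-3068-3p and miR-23b-3p, and those below were miR-374b-5p, let-7e-3p, miR-141-3p, let-7i-3p, miR-330-5p, miR-34c-5p, miR-210-3p, miR-29a-5p and miR-140-5p. In the deposited CPM, miR-3968 and miR-29a-5p overlapped between these groups. With mouse 3341 left out as well, edgeR called 0 of 469 miRNAs, and 15 higher and 23 lower ones had an unadjusted p under 0.05.

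Of those that separated, miR-3968 had 306 to 857 CPM in the 4 CM mice and 158 to 304 CPM in the 6 Ctrl mice. The lowest CM and the highest Ctrl library were nearly level. In the deposited CPM these groups overlapped, at 231 CPM in CM mouse 3368 and 292 CPM in Ctrl mouse 3339. By the count table, the log2 fold change of miR-3968 was 1.18 ± 0.31 (edgeR adjusted p = 0.195) and 0.82 ± 0.25 without mouse 3341 (edgeR adjusted p = 0.483). With all 12 libraries the groups overlapped, at 244 CPM in the library labelled 3334 and 523 CPM in the library labelled 3335 (log2 fold change 0.72 ± 0.34, edgeR adjusted p = 0.706).

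On the lower side of these 10 libraries, miR-330-5p had 58.01 to 135.5 CPM in CM and 136.8 to 233 CPM in Ctrl mice, with nearly level extremes (log2 fold change -0.84 ± 0.30, edgeR adjusted p = 0.233). let-7e-5p, encoded beside miR-125a and miR-99b, had 77.2 to 279 and 210.2 to 500.3 CPM (-1.12 ± 0.39, edgeR adjusted p = 0.233). miR-326-3p had 131.1 to 388 and 339 to 619.9 CPM (-0.92 ± 0.32, edgeR adjusted p = 0.232). The latter pair overlapped between the groups.

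The spread among mice, as the SD of log2(CPM + 1) and with no test, was larger in CM than in Ctrl mice for 271 of 444 miRNAs (61.04%). The median SD was 0.599 in CM and 0.497 in Ctrl mice. Without mouse 3341, on the same scale, the median SD of the 4 remaining CM mice was 0.391, and 151 miRNAs (34.01%) had the larger SD in CM. Leaving out this mouse thus turned the direction of the difference. It was left out because its library stood furthest apart, a choice that favours a smaller SD in the rest. Ctrl mouse 3342, the furthest of the Ctrl libraries with 94 miRNAs beyond 1 log2 unit, stayed in.

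The widest spreads came from different libraries. Mouse 3341 was at the top for miR-212-3p (SD 2.71 in CM and 0.70 in Ctrl mice), miR-31-5p (2.58 and 1.12) and miR-126a-3p (2.07 and 0.84). For miR-1a-3p, with an SD of 3.63 in CM and 1.86 in Ctrl mice, the levels were 8244 CPM in the library labelled 3334, 404 in mouse 3368, 112.4 in mouse 3336, 27.7 in mouse 3341 and 13.2 in mouse 3370. In the deposited CPM, mice 3336 and 3370 had 1897 and 194 CPM of it, so that its spread depends on the counting. By the count table, the levels of miR-133a-3p were 397 CPM in the library labelled 3334, 95.3 in mouse 3336, 18.5 in mouse 3368, 1.77 in mouse 3370 and 0.380 in mouse 3341, against 0.395 to 27.1 CPM in Ctrl mice. The muscle miRNA miR-499-5p was highest in mouse 3336, at 47.2 CPM. Whether muscle RNA entered these blood samples was not tested.

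let-7f-5p had 750.5 to 83878 CPM in CM and 3271 to 58484 CPM in Ctrl mice by the count table, but 44826 to 135955 CPM over all 12 libraries in the deposited CPM. It differs from other let-7 members at few bases, so that its spread is uncertain. By the count table, miR-8117 and miR-669m-5p, with 0 counts in mouse 3341 and at most 61.97 and 46.4 CPM in any library, also had wide spreads. In the deposited CPM, miR-669m-5p was low in all 12 libraries. Ctrl mouse 3340, its highest library by the count table, had 2.497 CPM there. The spread of miR-669m-5p thus depends on the counting, whereas miR-8117 had a wide range in the deposited CPM too.

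**Figure D4:**
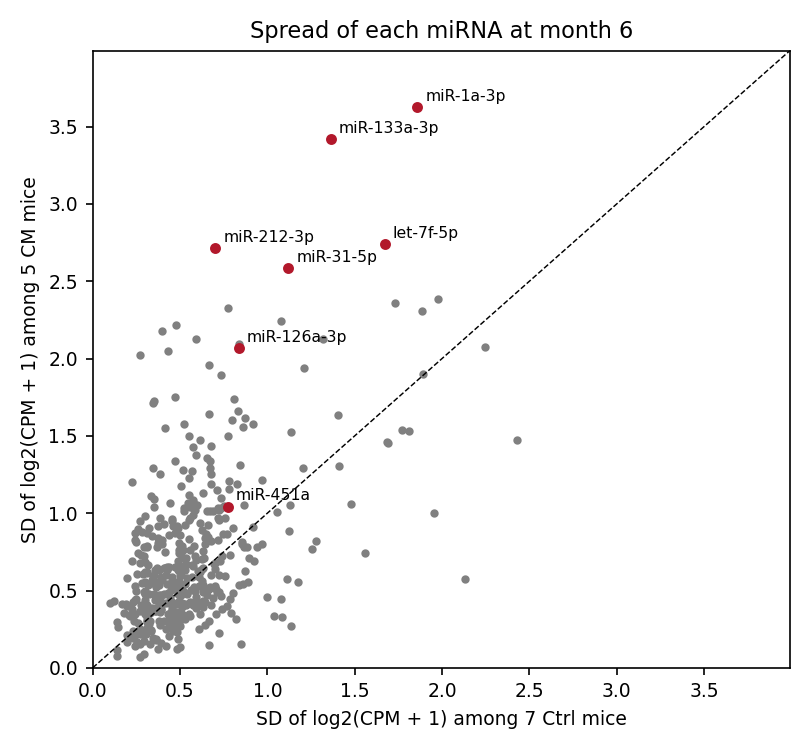
SD of log2(CPM + 1) among the 5 CM mice (vertical) against that among the 7 Ctrl mice (horizontal) for each of 444 miRNAs, with the labelled miRNAs in red and equality as the dashed line. More points (271) lie above the line than below it, and miR-1a-3p has an SD of 3.63 among CM mice.

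In mouse 3341, 7 of 8 erythroid miRNAs were at their lowest of the 12 libraries, as were 4 of 10 lymphocyte miRNAs. Over all 444 miRNAs that share was 32.7%, so that the lymphocyte count lay near it. miR-451a, the most abundant red cell miRNA, had 16005 CPM in mouse 3341 and 55355 to 100136 CPM in the other CM mice, against 39115 to 211761 CPM in Ctrl mice. miR-150-5p, a marker of mature lymphocytes, had 16008 CPM in mouse 3341 and 21854 to 48569.5 CPM in the other CM mice, against 23120.0 to 49527 CPM in Ctrl mice. miR-130a-3p, of the stem and progenitor list, had 18.2 CPM in mouse 3341 and 303 to 672 CPM in all others. In each case mouse 3341 lay below every other library. Other lymphocyte miRNAs did not follow, with miR-342-3p at 5359.9 CPM and miR-181a-5p at 2358 CPM in mouse 3341, both inside the range of the other libraries. miR-223-3p and miR-223-5p, of the myeloid list, were also lowest in mouse 3341, at 2953 and 97.6 CPM, against at least 3234 and 145 CPM in the others. In bulk samples, fewer cells of a type and less RNA per cell cannot be told apart. With 3146928 counts, the depth of this library was within the range of the others. Its TMM factor of 0.837 was the lowest of the 12, close to 0.845 in Ctrl mouse 3349 (others up to 1.14). Its share of miR-5099, at 4.64%, was the highest of the 12 (others 0.736% to 3.63%). The part of these in the levels of mouse 3341 was not tested.

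The lists of cell type and function miRNAs are given by their members with an unadjusted p under 0.05, since edgeR called 0 miRNAs in all, and are to be read beside the 5.41% higher and 1.58% lower of all 444. Of 8 erythroid miRNAs, 0 were past that threshold in either direction, and the median log2 fold change was -0.05, beside -0.03 for all 444. Without mouse 3341 these medians were 0.10 and -0.06. Their summed level was 39634 to 176069 CPM in CM mice, lowest in mouse 3341, and 82096 to 337834 CPM in Ctrl mice. Of 10 lymphocyte miRNAs, 1 was lower (miR-29c-3p). Their median was -0.24, and they summed to 39009.9 to 91299.5 CPM in CM, lowest in mouse 3341, and 48880.3 to 100747 CPM in Ctrl mice. The 9 myeloid miRNAs had 0 past the threshold, a median of 0.12 and a sum of 186583 to 253753 CPM in CM, highest in mouse 3341, and 160400.0 to 254078 CPM in Ctrl mice, a sum that miR-21a-5p led with 156760.0 CPM in mouse 3341.

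Of 6 platelet miRNAs, 1 was higher (miR-126a-3p). Their median log2 fold change was 0.30, and 0.02 without mouse 3341. They summed to 32099 to 121046 CPM in CM mice, highest in mouse 3341, and 23518 to 91001 CPM in Ctrl mice. Of that sum, miR-26a-5p gave 72165 CPM in mouse 3341, whereas miR-221-3p and miR-222-3p, at 3859 and 466 CPM, were below every other library. The part of platelets in the miR-126a levels was not tested.

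Among 11 tested stem and progenitor miRNAs, 2 were higher (miR-196b-5p and miR-146b-5p), and the median log2 fold change was -0.25. Without mouse 3341 that median was 0.002. Mouse 3341 held the lowest level for 7 of the 11 and the highest for 2, beside 32.7% and 25.5% of all 444 miRNAs. miR-146b-5p, a brake on NF-kB signaling, had 8225 CPM in mouse 3341, 1125 to 1705 in the other CM mice and 1001 to 1631 CPM in Ctrl mice. Of 7 inflammatory miRNAs, 3 were higher (miR-132-3p, miR-212-3p and miR-132-5p), with a median of -0.03. These 3 are products of 1 cluster. All 5 had their highest library in mouse 3341. miR-155-5p of the inflammatory list had 5534 CPM in that mouse and lay inside the Ctrl range of 1671 to 6027 CPM.

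The 12 miRNAs of the miR-17-92 and paralogue clusters, which promote proliferation, had 0 past the threshold and a median log2 fold change of -0.02. The 9 let-7 miRNAs, which accompany differentiation, had 0 and a median of 0.15, which became -0.24 without mouse 3341. Of 38 miRNAs of the imprinted Dlk1-Dio3 cluster, 2 passed the filter on low counts (miR-541-5p at 1.70 ± 0.67 and miR-127-3p at -0.21 ± 0.52). Of 3 p53 target miRNAs, 2 were tested, with a median of -0.53 and 0 past the threshold. The 2 tested liver miRNAs had a median of 0.49 and the 3 of the vessel wall -0.41, with 0 past the threshold in both lists. Without mouse 3341 these medians were 0.19 and -0.09. Vessel wall miRNAs summed to 35.3 CPM in mouse 3341, the lowest of the 12, to 1339.8 CPM in the library labelled 3334, the highest, and to 335 to 1199.6 CPM in Ctrl mice. The 3 tested muscle miRNAs had 2 higher members and a median of 3.55, with the highest sum in the library labelled 3334. Without the libraries labelled 3334 and 3335, some lists differed, beside 10.1% higher and 4.04% lower of all 445. The let-7 list then had 1 higher and 1 lower member, liver 1 higher, vessel wall 1 lower (median -1.23) and p53 targets 1 lower. Muscle had 1 higher (median 1.57), lymphocyte 0 lower, and stem and progenitor 2 higher and 1 lower. In the remaining lists these numbers were unchanged.

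Among the most abundant miRNAs the groups overlapped. miR-21a-5p, which is widespread in activated and leukemic cells, had 103354 to 156760.0 CPM in CM and 90737 to 165869 CPM in Ctrl mice (log2 fold change -0.14 ± 0.18). let-7i-5p had 58756 to 70850.0 and 53398 to 124472 CPM (-0.23 ± 0.21), and let-7g-5p had 25953 to 55320.5 and 24825 to 45331 CPM (0.31 ± 0.23). miR-142a-5p, found in all leukocytes, had 24532 to 46119 and 16183 to 49358 CPM (0.19 ± 0.26). miR-146a-5p, miR-29a-3p and miR-486b-5p had log2 fold changes of -0.13 ± 0.25, -0.37 ± 0.24 and -0.13 ± 0.37. For these 7 the edgeR adjusted p was at least 0.706. miR-486b-5p has a near copy in miR-486a-5p, between which reads could be split.

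Earlier libraries of the same mice show when the levels of mouse 3341 appeared. On the scale of all training libraries, miR-126a-3p in mouse 3341 was 122.5, 304, 245, 296, 319, 454 and 4607 CPM over months 0 to 6. Up to month 5 the other CM mice had 109.04 to 474 CPM, and mouse 3341 was within that range. Its level at month 6 was 10.1-fold that at month 5. Over that month 224 of 444 miRNAs (50.5%) moved by more than 1 log2 unit in mouse 3341, against 12.6% to 23.4% in the other CM mice and 16.4% to 41.7% in Ctrl mice.

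miR-31-5p in mouse 3341 was 1352 CPM at month 5 and 14918 CPM a month later. miR-212-3p went from 9.69 to 300.0 CPM, miR-132-3p from 47.6 to 934 CPM and miR-2137 from 102.8 to 1952 CPM. The red cell miRNAs went the other way, miR-451a from 122594 to 14563 CPM and miR-486b-5p from 73556 to 14630.1 CPM. miR-374b-5p, at 1185 and 1391 CPM, and miR-141-3p, at 46.99 and 55.3 CPM, had no such step.

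**Figure D5:**
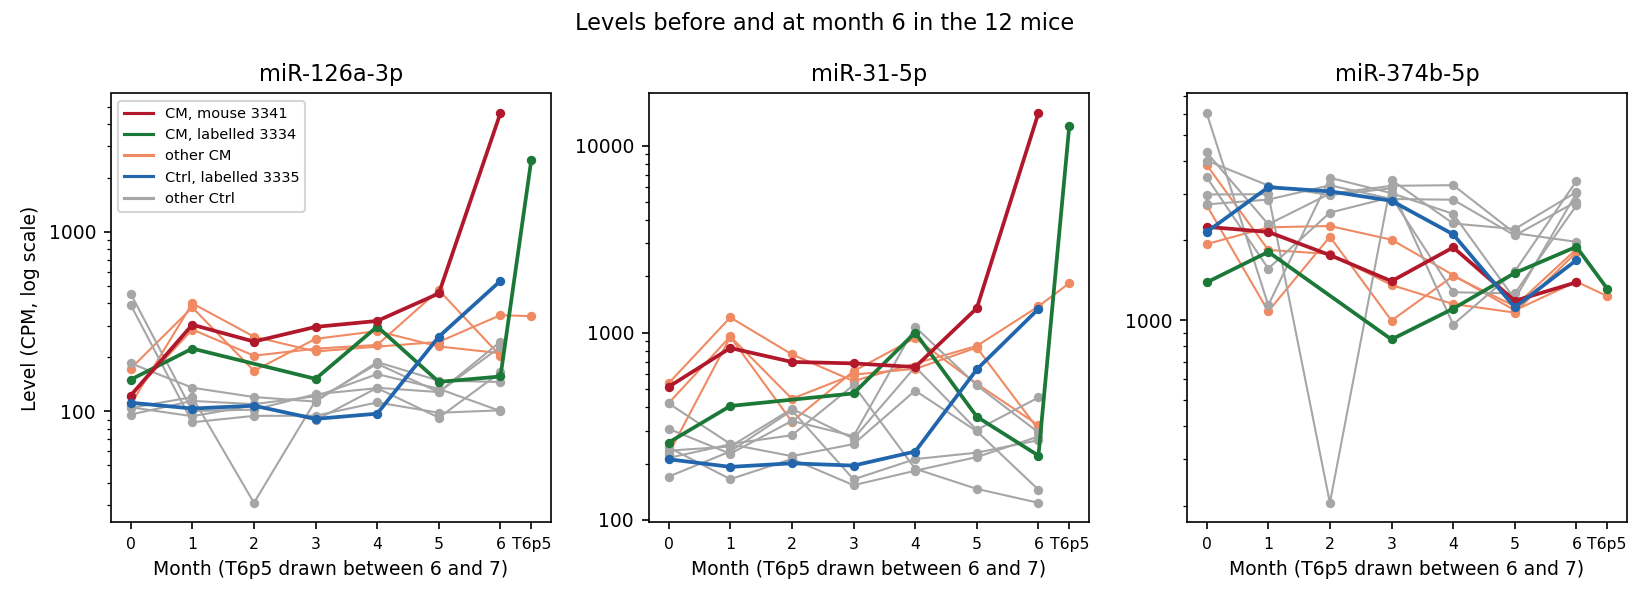
Level (CPM on the scale of all training libraries, log scale) of miR-126a-3p, miR-31-5p and miR-374b-5p by month in the 12 mice of month 6, with T6p5 drawn after month 6, mouse 3341 in red, the libraries labelled 3334 in green, those labelled 3335 in blue, other CM mice in orange and other Ctrl mice in gray; lines bridge months with no library. Mouse 3341 at month 6 (4607 CPM) and the library labelled 3334 at T6p5 (2519.8 CPM) lie above all other points for miR-126a-3p, and miR-374b-5p shows no such step.

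Between the libraries labelled 3334 at month 6 and T6p5, both in doubt, a like step was seen. There miR-126a-3p was 156 CPM at month 6 and 2519.8 CPM at T6p5, miR-126a-5p was 87.2 and 1464 CPM, and miR-31-5p was 221 and 12669 CPM. miR-196b-5p, high in mouse 3341, was 229.6 and 26.6 CPM, so that the high miRNAs of these libraries were not all shared. In mouse 3336, miR-126a-3p was 344 CPM at month 6, 339 at T6p5 and 1385 in its last library, that of month 7. In mouse 3370 it was 204 CPM at month 6 and 453 in its last library, and in mouse 3368 it was between 203 and 265 CPM from month 6 to month 10.

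In the libraries labelled 3335, a Ctrl mouse, miR-126a-3p was 90.7 to 111.8 CPM over months 0 to 4, then 261 and 534 CPM in months 5 and 6, and 91.04 to 171 CPM over months 7 to 10. miR-31-5p there was 192 to 232 CPM over months 0 to 4, then 637 and 1341 CPM, and 123.5 to 233 CPM over months 7 to 10. Both were thus higher in month 5 than before, ahead of the crossing of the running numbers, and highest in month 6. In month 6 the library labelled 3334 had the lowest CM values of both. The libraries of months 7 to 10 carry the crossed numbers too. Whether samples were exchanged was not tested.

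The arm difference was also set against that of earlier months, which share most mice with month 6. miR-126a-3p had a log2 fold change of 1.68 ± 0.17 in month 1 (edgeR adjusted p = 1.05e-05), 1.17 ± 0.32 in month 5 (edgeR adjusted p = 0.106) and 2.40 ± 0.85 in month 6, where the standard error was the largest of the 3. The interaction of arm and month, the arm difference in month 6 minus that in the other month, was 1.21 ± 0.96 against month 5 (edgeR adjusted p = 0.749) and 0.59 ± 0.84 against month 1 (edgeR adjusted p = 0.747). With the mouse as a block, which pairs libraries of the same animal, it was -0.12 and -0.79 (edgeR adjusted p = 0.998 and 0.762), so that its sign turned.

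For miR-126a-5p the interaction was 1.60 ± 1.05 against month 5 and 0.80 ± 0.92 against month 1 (edgeR adjusted p = 0.680 and 0.704), and 0.11 and -0.74 with the block. Over all miRNAs, edgeR called 0 of 554 interactions against month 5 (0%), with 39 at an unadjusted p under 0.05 and 23 with the block. Against month 1 it called 0 of 541 (0%), with 90 and 57. DESeq2 called 0 against month 5, with 33 at an unadjusted p under 0.05, and 25 against month 1, of which 20 were negative.

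The smallest edgeR adjusted p against month 1, 0.0755, was shared by 15 miRNAs, among them the red cell miRNAs miR-486a-3p and miR-144-5p, which were named after their values were seen. Their interactions were -3.09 ± 0.77 and -2.93 ± 0.83 (edgeR adjusted p = 0.110 for both with the mouse block). In month 6 itself, miR-486a-3p had a log2 fold change of 0.01 and miR-144-5p of 0.12.

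The G number of the labels, which is not explained, was spread unevenly over the groups. Of its 7 values in month 6, G5 was the one held by both groups, with CM mice 3334 and 3370 and Ctrl mouse 3346. Within G5 the mean log2 difference was 0.72 for miR-126a-3p, 1.28 for miR-126a-5p, -0.12 for miR-132-3p, -0.59 for miR-141-3p and -0.64 for miR-374b-5p. Over all mice these differences were 1.09, 1.33, 1.20, -0.73 and -0.68. With 3 libraries no test was made, and mouse 3341, the one mouse of G3, was not among them. A model with the G number as a term rests on the same 3 libraries for the arm difference and gives no test of the 12. With sex as a covariate edgeR called 0 miRNAs, with 14 at an unadjusted p under 0.05.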

How the data were processed

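Small RNA libraries of PBMC were sequenced, and the count table used here holds whole-number counts per mature miRNA that the authors deposited without normalization. Per the methods of the study, 3′ adapters were trimmed with cutadapt, reads were aligned with Bowtie to mm9 and assigned to miRBase 18. The processing notes name GRCm38 instead, so the build is uncertain, and coordinates here come from RefSeq GRCm38.p6. A second deposited table of CPM, scaled by the authors with edgeR's TMM factors and treated as a signal, shares 1849 of its 1895 miRNAs with the 1863 of the count table, and per library log values correlated at 0.943 to 0.951. All its values (100%, tolerance 0.001) were whole reads once unscaled. edgeR on those reads called 0 of 443 miRNAs, with 38 at an unadjusted p under 0.05.

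Counts were filtered with filterByExpr, scaled by TMM and tested with edgeR 4.0.16 (quasi-likelihood, R 4.3.3) and Benjamini-Hochberg adjustment. Log values used a pseudocount of 1. DESeq2 1.42.0 and limma 3.58.1 were alternatives, along with other scalings, filters, covariates and left-out mice. Libraries of the same mouse were paired through the labels. Their deviations from the group means correlated between -0.25 and 0.21 over 12 mice for either earlier month. Over 66 pairs of month 6 libraries, chi-square per degree of freedom was 394 to 4174. The edgeR fits of the arm difference and of the interactions were tried on simulated data. There the changes were shared by all mice of a group, and the spread was set lower than that fitted for month 6. The simulation thus does not cover a difference carried by 1 mouse. The permutation test, DESeq2, limma and the joint fit were not simulated. Named miRNAs were both arms of miR-126a and, at a mean of 10 CPM or more, the 6 with the smallest p per direction with and without mice 3334 and 3335, the 8 with the widest spread among CM mice and the 10 most abundant, besides list members. Members and lists were chosen with earlier results of these data known. The validation cohort was not used here. Reads of near-identical miRNAs, such as miR-486a and miR-486b or let-7 members, could be split.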

Additional observations from a re-analysis of the deposited data

Results flagged for a closer look

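Within month 6, 66 groups of values were searched for a library set apart from its neighbour. The gap had to exceed a set share of the range of log2(CPM + 1) in its group, and 11 groups had one. The gap took up 0.73 to 0.83 of the range in the flagged CM groups and 0.58 to 0.60 in the flagged Ctrl groups. Chance gives about 1 in 20 groups, a rate that does not hold here, since most of these miRNAs were named for a small p or a wide spread among CM mice. Of the 11, 8 lay in CM mouse 3341, all at the top of the 5 CM mice. These were miR-126a-3p at 5062 CPM, miR-126a-5p at 3268 CPM, miR-196b-5p at 4919.6 CPM, miR-2137 at 2145 CPM, miR-132-3p at 1026 CPM, miR-193b-3p at 813 CPM, miR-212-3p at 329.7 CPM and miR-132-5p at 180.0 CPM. These miRNAs were measured in 1 library and are not independent. Among Ctrl mice, miR-212-3p stood apart at 13.7 CPM in the library labelled 3335. In Ctrl mouse 3349, miR-21a-5p at 90737 CPM and miR-29a-3p at 17276 CPM stood apart at the low end.

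The libraries labelled T6p5 entered no main comparison. Both arms of miR-126a and the 6 named miRNAs with the smallest p on the higher side were searched in them for levels above the highest Ctrl library of month 6, on the scale of all training libraries. In the library labelled 3334, whose running number continues that of mouse 3335, these were miR-31-5p at 12669 CPM, miR-126a-3p at 2519.8 CPM, miR-126a-5p at 1464 CPM, miR-2137 at 171 CPM, miR-132-3p at 171 CPM, miR-193b-3p at 69.7 CPM and miR-212-3p at 50.7 CPM. In mouse 3336 they were miR-31-5p at 1839 CPM, miR-196b-5p at 486 CPM, miR-2137 at 351 CPM and miR-132-3p at 57.05 CPM.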

How the results depend on the processing

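The comparison of all 12 libraries gave 0 calls under every setting tried except a joint fit of all training libraries. The setting with the G number gives no test of this comparison. The joint fit estimates the spread over more mice and months. It has no term for the mouse, so repeated libraries of a mouse count as independent and its p-values do not refer to the spread between mice alone. That fit called 19 of 815 miRNAs, 18 higher and 1 lower, and 0 of 812 without the month 6 library of mouse 3341, an alternative chosen after seeing the data. Without the libraries labelled 3334 and 3335, dropping the filter on low counts gave 18 calls of 1520 (17 higher, 1 lower), and 11 of 1483 with mouse 3341 left out as well (also chosen after seeing the data). Leaving out 1 mouse gave log2 fold changes of -0.016 (without mouse 3341) to 2.76 (without mouse 3335) for miR-126a-3p and of -0.16 to 4.16 (the same mice) for miR-212-3p. In the joint fit without mouse 3341 they were -0.0034 and -0.13. Adding the G number to the model, which leaves the arm difference to the 3 libraries of G5 and takes no account of mouse 3341, put miR-132-3p at -0.10 and miR-212-3p at -0.24. The interaction with month 5 for miR-126a-3p was -0.12 with the mouse as a replicate block, and -1.05 (without mouse 3341) to 1.65 on leaving out 1 mouse, and for miR-126a-5p that range was -0.89 to 1.98. With month 1, the blocked values of the 3p and 5p arms were -0.79 and -0.74, and their ranges -1.71 to 1.07 and -1.70 to 1.28. DESeq2 called 25 interactions with month 1 against 0 by edgeR, where leaving out 1 mouse gave 0 to 6 (6 without mouse 3370, 1 without mouse 3334). The pairing by mouse changed no call. Over the named miRNAs in the arm comparisons of month 6, interactions aside, 564 values kept their direction and side of the threshold, 15 passed it in the joint fit or without the filter, and 6 turned sign, 2 of them through the G number. The share of miRNAs with the larger spread in CM mice was 38.0% without mouse 3341, with filter and scaling redone, and up to 69.4% without Ctrl mouse 3342. The cause of these differences was not tested.

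With the T6p5 libraries in place of those of month 6 for mouse 3336 and the label 3334, which is in doubt in both, the mean log2 difference of miR-126a-3p was 1.997 (exact permutation p = 0.0366, 0.0505 after adjustment), and edgeR called 0 miRNAs.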
